A study of Rattus norvegicus with 9 samples.

Results

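Ketamine was compared with no treatment in the medial prefrontal cortex (mPFC) of Wistar Kyoto rats, an inbred strain used in depression research. The comparison took the 3 libraries named Ketamine and the 3 named Control, 6 of the 9 libraries of the series, and all genes with enough counts to test. Per the labels, Ketamine rats received the drug under the skin over 7 days, were then left without it for another 7 days and were sampled on day 15. Control rats were left untreated and were sampled on the same day. The 3 remaining libraries come from rats given K4, a compound known here by its code, for 7 days through an intravenous cannula, with the same withdrawal. The labels give no dose, vehicle, sex, age or hour of dissection. Handling and injection therefore cannot be told apart from the drug. They also do not say that each library is a separate animal, so p-values measure only the spread between libraries. That spread was estimated over all 9 libraries, K4 included.

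Ketamine blocks the NMDA receptor, a glutamate-gated ion channel that opens only when glutamate binds and the membrane is depolarised. A single low dose relieves depressive symptoms in people for days after the drug has been cleared. The mPFC, a frontal region that regulates mood and stress responses, is one of the places where that action has been studied. There, ketamine is known to raise glutamate release for a short time, to increase signalling through AMPA receptors, the neurotrophin BDNF and the mTOR kinase, and to promote new dendritic spines. No library was taken during treatment, so a change that persisted and one that began only after the drug was stopped look the same here.

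The libraries held 27122207 to 33837450 counts in Ketamine and 40863756 to 42731004 in Control, and 18047 genes were tested. Values below are CPM, read counts scaled to library size after TMM normalisation, listed for replicates 1, 2 and 3 of each group, and the numbers were not taken to pair the groups. A marker of excitatory neurons was high in every library of both groups: Slc17a7, the vesicular glutamate transporter of cortical excitatory neurons, had 827, 747 and 938 CPM in Control and 915, 978 and 897 CPM in Ketamine. This gene alone does not show how pure the dissection was. Counts of the 13 protein genes of the mitochondrial genome made up 14.6%, 19.0% and 11.6% of all counts in Control and 11.7%, 10.6% and 11.8% in Ketamine, a difference in means of −3.66 percentage points (exact two-sided permutation p = 0.3, where 0.1 is the smallest possible). Control replicate 2 also had the highest summed level of astrocyte, microglia, oligodendrocyte, precursor, endothelial, pericyte, choroid plexus and blood cell markers among the 6 libraries. Between 2 libraries of a group, chi-square per degree of freedom was 18.3 to 90.1 in Control, 6.86 to 9.24 in Ketamine and 5.76 to 12.4 in K4. These values also rise with depth, which was greater in Control. The fit pools the spread of the groups, so a wider spread in Control is averaged with the others.

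The libraries of the 2 groups did not overlap in how counts depended on transcript length. An implied length was taken for each gene from its deposited count and FPKM (fragments per kilobase of transcript, scaled to library size). It stands in for the length of the gene model behind the authors' FPKM. The ratio was not fixed for every gene: in the K4 libraries Sox6 had a mean CPM of 19.7 (SD 1.17) and a mean FPKM of 1.69 (SD 0.68). What that model leaves out of the real transcript was not tested. Each gene's log2 CPM was centred on its mean over the 9 libraries and set against log2 length. The slope per doubling of length was 0.060, 0.045 and 0.071 in Control and −0.019, −0.066 and −0.063 in Ketamine. The difference in mean slope was −0.108 (exact two-sided permutation p = 0.1, the smallest that 3 against 3 libraries can give). Genes with a length were then cut into 10 bins of 1749 by length. In the bin with the shortest models the median log2 fold change, Ketamine against Control, was 0.20, and in the bin with the longest it was −0.23. Because of this trend many results are also given from a fit with a length offset, which subtracts each library's own smooth trend over length. The offset by construction also removes any average change that truly follows length, and which of these fits is nearer to the tissue's RNA was not tested.

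**Figure D1:**
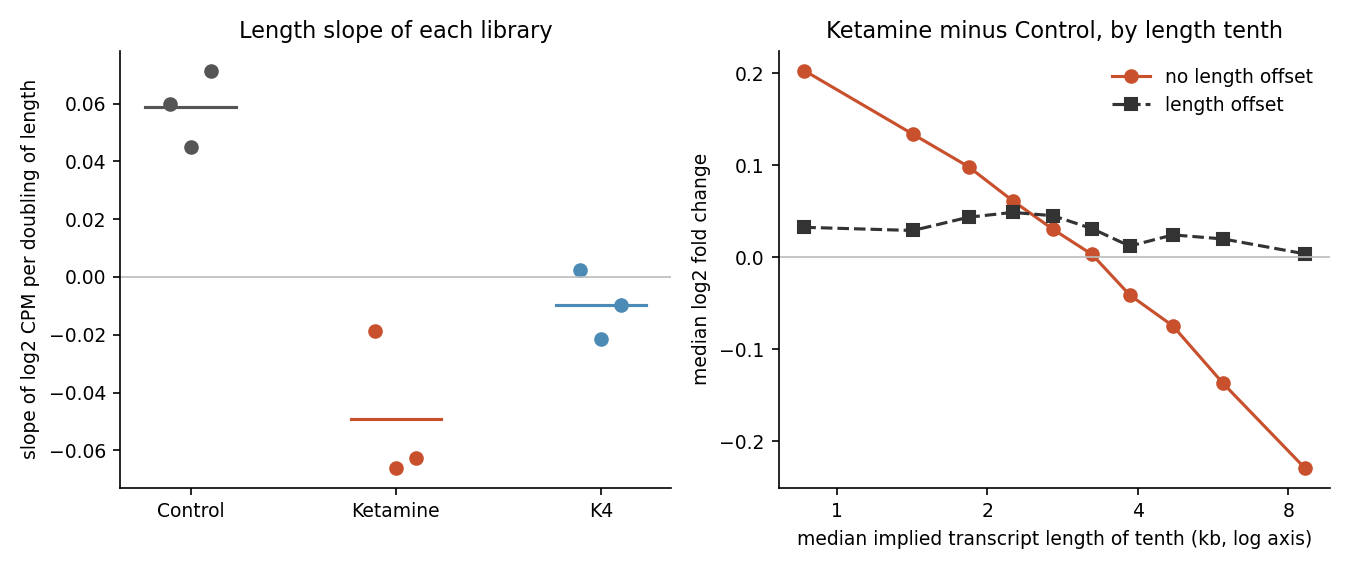
Slope of centred log2 CPM over log2 implied length in each of the 9 libraries, and the median log2 fold change of Ketamine against Control in 10 bins of the genes ordered by length, without and with the length offset. The Ketamine slopes lie between −0.066 and −0.019 and all lie under the Control slopes of 0.045 to 0.071, and the offset brings the medians of the outer bins from 0.20 and −0.23 to 0.03 and 0.0037.

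Calls were made with edgeR's quasi-likelihood test, at an adjusted p (Benjamini-Hochberg, over all 18047 genes) below 0.05. Of these genes, 3013 were called (16.7%), 1254 higher (6.95%) and 1759 lower (9.75%) in Ketamine, with 5640 at an unadjusted p below 0.05. Most calls were modest: the median absolute log2 fold change was 0.37, and 40 higher and 92 lower genes passed 2-fold. The balance of directions depended on the scale, since 1587 higher and 1549 lower genes were called with upper quartile scaling. The deposited FPKM in limma gave 1698 higher and 984 lower calls. That fit also differed in its test and its genes, the 13666 with a mean FPKM of at least 1. With the length offset 1356 genes were called (7.51%), 645 higher (3.57%) and 711 lower (3.94%). Both fits called 1167 genes in the same direction (6.47%), 496 higher (2.75%) and 671 lower (3.72%), and no gene was called in opposite directions. Of the 1846 genes called only without the offset, 80 had the opposite sign with it.

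Calls were spread unevenly over length. The bin with the shortest models held 321 higher and 30 lower calls without the offset, and 43 and 46 with it. The bin with the longest models held 9 higher and 664 lower calls without it, and 66 and 112 with it. The median implied length was 1.67 kb among genes called higher, 5.75 kb among those called lower and 2.96 kb over all genes with a length. Among genes called in both fits it was 2.37 kb for higher and 3.62 kb for lower genes. The count also depended on single libraries: it fell to 1811 without Control replicate 1, to 1177 without Ketamine replicate 2 and to 1556 without Ketamine replicate 3. With the offset it fell to 545, 266 and 456 without the same libraries and to 812 without Ketamine replicate 1, and rose to 2095 without Control replicate 3. Of the 3013 called genes, 1051 stayed called in all 9 fits that each left out a library. Of the 1167 genes called in both fits, 204 (47 higher, 157 lower) stayed called in these 9 and in all 6 such fits with the offset. A call in both fits, as counted for the lists below, was thus often lost when a library was left out.

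**Figure D2:**
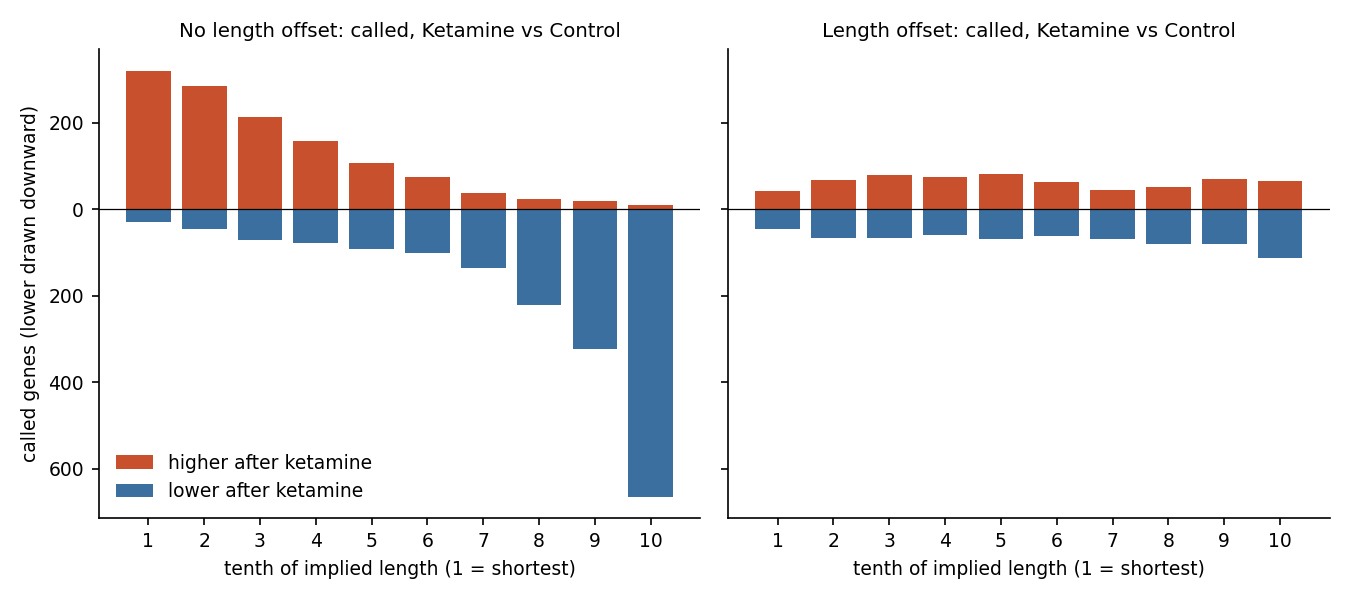
Number of genes called higher (above the axis) and lower (below the axis) in Ketamine, in 10 bins of genes by implied length, without the length offset on the left and with it on the right. Without the offset the calls go from 321 higher and 30 lower in the shortest bin to 9 higher and 664 lower in the longest, and with it no bin holds more than 112 calls in a direction.

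The genes named first were called in both fits, with no overlap between the 6 CPM values. Such a lack of overlap was common, here and below. Of all 18047 genes, 3051 (16.9%) had every Ketamine value above every Control value, and 3260 (18.1%) had every one below. Among those lower in Ketamine, Zbtb20, a zinc finger transcription factor needed for hippocampal and astrocyte development, had 13.9, 16.1 and 10.5 CPM in Control and 3.73, 1.21 and 1.39 CPM in Ketamine. This was the largest fall among them (edgeR log2 fold change −2.67, SE 0.35, adjusted p = 0.0014). The Ketamine values of replicates 2 and 3 lay far under that of replicate 1, and all of them lay under every Control value. Cdk6, a cyclin-dependent kinase of the cell cycle, had 3.26, 4.32 and 2.77 CPM in Control and 1.41, 0.641 and 1.10 CPM in Ketamine (edgeR log2 fold change −1.70, SE 0.26, adjusted p = 0.0015). Bche, the butyrylcholinesterase, had 3.60, 4.63 and 3.14 CPM in Control and 1.01, 1.53 and 1.10 CPM in Ketamine (edgeR log2 fold change −1.65, SE 0.22, adjusted p = 0.00077). Itga1, the collagen-binding integrin subunit, had 7.01, 5.72 and 4.08 CPM in Control and 2.60, 1.57 and 1.30 CPM in Ketamine (edgeR log2 fold change −1.62, SE 0.28, adjusted p = 0.0029).

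Fut9, Dok6 and Ston2 had a higher mean log2 CPM than these 4 genes and were lower too. Fut9, a fucosyltransferase that makes the Lewis X carbohydrate, had 16.5, 17.4 and 17.5 CPM in Control and 8.41, 6.37 and 4.46 CPM in Ketamine, with −1.41 in the offset fit against −1.42 without it. Dok6, an adaptor of the RET receptor, had 37.1, 57.1 and 35.4 CPM in Control and 18.2, 15.8 and 14.8 CPM in Ketamine (edgeR log2 fold change −1.41, SE 0.16, adjusted p = 0.00061). Ston2, which sorts synaptotagmin into endocytic vesicles, had 62.8, 86.4 and 52.1 CPM in Control and 28.1, 22.4 and 25.5 CPM in Ketamine (edgeR log2 fold change −1.40, SE 0.18, adjusted p = 0.0014). Dok6 and Ston2 were highest in Control replicate 2, and every Ketamine value stood well under the lowest Control value. The genes with the smallest p-values were tighter between replicates. Ptpn4, a tyrosine phosphatase that binds glutamate receptors, had 137, 131 and 129 CPM in Control and 89.6, 88.3 and 87.2 CPM in Ketamine. Myo5a, a myosin that carries organelles into dendritic spines, had 347, 354 and 369 CPM in Control and 236, 202 and 190.2 CPM in Ketamine. Pank3, which starts coenzyme A synthesis, had 164, 182 and 156 CPM in Control and 110.3, 107 and 108 CPM in Ketamine. In all of them the spread within a group was small beside the gap between groups, which choice by smallest p itself favours. The log2 fold changes were −0.58, −0.77 and −0.62, or −0.31, −0.60 and −0.40 with the offset. Ccdc170, Zfp366, Xkr6 and Ogfrl1 complete the lower genes that the rule took, and had log2 fold changes of −1.65, −1.50, −1.37 and −0.72. Of the 6 offset fits that each left out a library, 5 called Ccdc170 and 4 called Xkr6. Taok1, Slc1a2, Rgs5 and Grm3 are described with their lists.

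Among genes higher in Ketamine, Gfy, a Golgi protein of olfactory neurons, had 0.266, 0.572 and 0.965 CPM in Control and 2.63, 2.88 and 2.89 CPM in Ketamine (edgeR log2 fold change 2.22, SE 0.32, adjusted p = 0.0011). Trim15, a TRIM family protein of focal adhesions, had 0.701, 0.754 and 0.940 CPM in Control and 1.99, 2.21 and 1.74 CPM in Ketamine (edgeR log2 fold change 1.30, SE 0.24, adjusted p = 0.0034). Cpne1, Gprc5a, Tmprss5 and Tmem200b rose by log2 values of 1.82, 1.51, 1.08 and 1.04 from low Control levels. When 1 of the 6 libraries at a time was left out of the offset fit, Cpne1 stayed called in 1 of 6, Tmprss5 in 2, and Gprc5a and Tmem200b in 3. Slc4a11, a membrane transporter related to bicarbonate carriers, had 6.89, 9.05 and 7.07 CPM in Control and 12.7, 16.3 and 11.6 CPM in Ketamine. Tesc, the calcium-binding protein tescalcin, had 13.1, 13.1 and 16.0 CPM in Control and 23.0, 25.5 and 23.6 CPM in Ketamine. Neither pair of groups overlapped, which the rule required. Both genes stayed called whichever library was left out (edgeR log2 fold change 0.82, SE 0.14, adjusted p = 0.0025 for Slc4a11, and edgeR log2 fold change 0.78, SE 0.10, adjusted p = 0.00060 for Tesc). Siva1, a regulator of cell death, and Opn3, a light-sensitive receptor of the opsin family, rose by 0.83 and 0.76. Siva1 was called in 3 and Opn3 in 1 of the 6 offset fits that each left out a library, and Opn3 in 6 of 9 such fits without the offset.

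Of the 6 higher genes with the smallest p-values among those called in both fits, Nedd8, Sorcs3 and Vps28 are described with their lists, and all but Sorcs3, at 6.58 kb, had implied lengths under the median of all genes. Ccdc124, a ribosome-binding factor, had 31.4, 32.7 and 33.1 CPM in Control and 46.7, 46.2 and 46.6 CPM in Ketamine. Ptms, the small acidic nuclear protein parathymosin, had 298, 315 and 299.5 CPM in Control and 431, 424 and 422 CPM in Ketamine. Nudc, a dynein-associated chaperone, had 68.3, 64.6 and 69.8 CPM in Control and 92.5, 91.0 and 92.4 CPM in Ketamine. The values differed little within each group, which choice by smallest p also favours. Ketamine stood at 1.44, 1.40 and 1.36 times Control. The implied lengths were 1.32, 1.30 and 1.46 kb, and the log2 fold changes of 0.52, 0.48 and 0.45 became 0.40, 0.36 and 0.34 with the offset. All 3 were still called in each of the offset fits that left out a library.

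**Figure D3:**
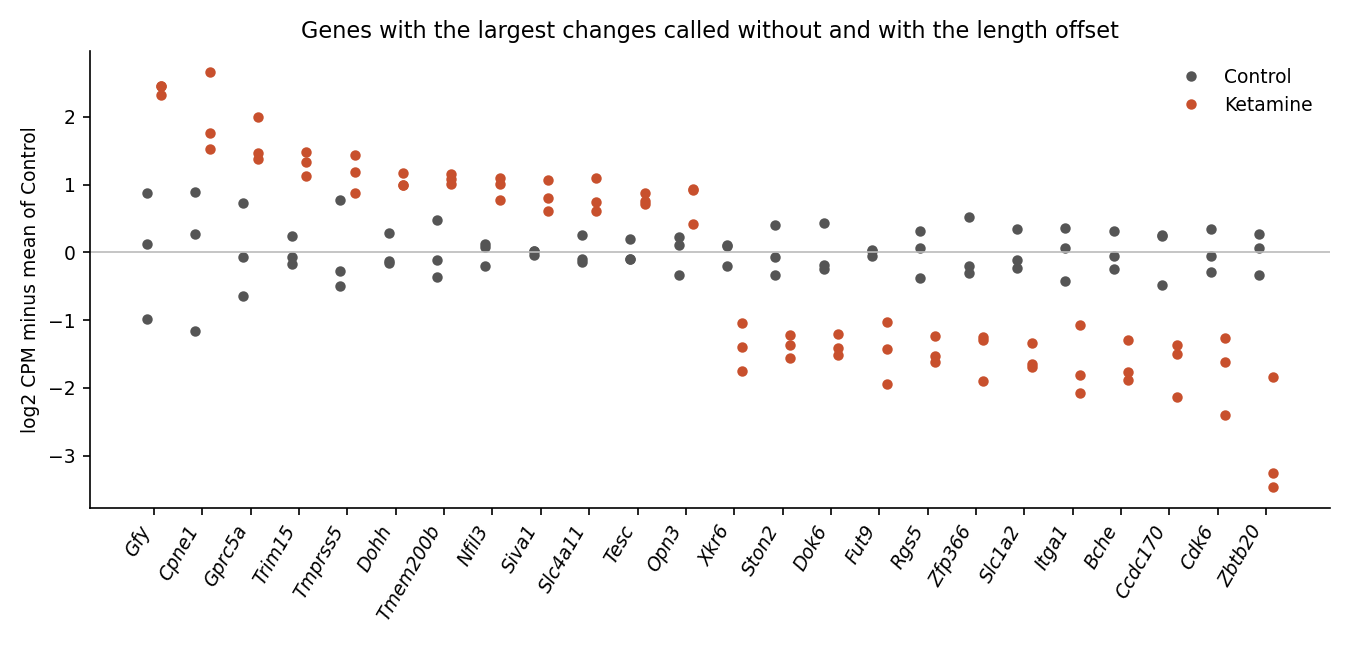
log2 CPM of leading genes in the 3 Control and 3 Ketamine libraries, less each gene's mean log2 CPM in Control, 1 point a library, chosen by the rule on genes called both without and with the length offset. No gene has overlapping groups, which the rule itself required.

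Among the glutamate receptors, 2 of 6 subunits of the drug's own target were called. Over all genes the median log2 fold change was −0.0023 (0.03 with the offset), which is the value to set beside each list. The shares to set beside each count are 16.7% of all genes for calls, and 6.47% for calls in both fits. Some genes belong to more than 1 list and are counted in each, among them Grm3, Slc6a11 and Vcan. The 1024 matched entries of all lists were 998 distinct genes. Of the NMDA receptor subunits 1 was called higher and 1 lower (0 calls without Control replicate 1 or Ketamine replicate 2, 1 without Ketamine replicate 3), with a median of −0.29 (−0.09 with the offset) and a median length of 7.11 kb. Such counts in parentheses, here and for later lists, are calls without the offset when 1 of the 6 libraries was left out, given where the count moved by more than 1.5 times. Grin1, the subunit every NMDA receptor needs, had 405, 378 and 451 CPM in Control and 493, 497 and 457 CPM in Ketamine. The groups did not overlap (edgeR log2 fold change 0.23, SE 0.070, adjusted p = 0.038; with the offset 0.34, adjusted p = 0.019 by edgeR), but only 1 of the 9 leave-one-out fits, each without a library, kept the call. Grin2d, a subunit of interneurons in the adult cortex, had 17.4, 15.2 and 14.5 CPM in Control and 9.02, 7.76 and 12.8 CPM in Ketamine (edgeR log2 fold change −0.67, SE 0.16, adjusted p = 0.014), and was not called with the offset (−0.42, adjusted p = 0.119 by edgeR). Grin2a had 138, 120.1 and 166 CPM in Control and 132, 93.8 and 90.6 CPM in Ketamine, and Grin2b had 469.7, 397 and 498 CPM in Control and 422, 409 and 400.0 CPM in Ketamine. Both overlapped between groups and neither was called (log2 fold changes −0.43 and −0.15, with edgeR adjusted p = 0.074 and 0.211).

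Of 16 AMPA receptor subunits and auxiliary proteins, 2 were called higher and 2 lower (1 call without Control replicate 1 or Ketamine replicate 2, 2 without Ketamine replicate 3). The pore-forming subunits Gria1 and Gria2 were not: Gria1 had 158, 133 and 158 CPM in Control and 146, 151 and 141 CPM in Ketamine and Gria2 had 941, 779.6 and 932 CPM in Control and 848, 779 and 748 CPM in Ketamine, with overlap in both. The calls fell on proteins that assemble or accompany the receptor. Frrs1l, which is needed for AMPA receptor assembly, had 239, 211 and 246 CPM in Control and 183, 162 and 164 CPM in Ketamine (edgeR log2 fold change −0.45, SE 0.069, adjusted p = 0.0016). Olfm1, a secreted protein of the AMPA receptor complex, had 878, 891 and 896 CPM in Control and 1023, 1068 and 1051 CPM in Ketamine (edgeR log2 fold change 0.24, SE 0.059, adjusted p = 0.017). The transmembrane regulators Cacng8 and Cacng4 had log2 fold changes of 0.36 and −0.34, and Cacng8 was not called with the offset (0.26, adjusted p = 0.133 by edgeR). The call of Cacng4 stayed in 1 of 9 fits that left out a library, and in 5 of 6 with the offset. The list's median was −0.03, and turned to 0.04 with the offset and to a positive value with FPKM.

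Kainate receptors modulate transmitter release, and delta receptors organise synapses. Of their 9 subunits 4 were called lower and none higher (1 call without Control replicate 1 or 3 or Ketamine replicate 3, 0 without Ketamine replicate 2), with a median of −0.27 (−0.16 with the offset). Grik1 had 14.4, 16.7 and 15.1 CPM in Control and 10.8, 10.5 and 12.5 CPM in Ketamine, and it was the member of this list also called with the offset (−0.38, adjusted p = 0.042 by edgeR). Grik2 and Grik3 had log2 fold changes of −0.28 and −0.49, or −0.25 and −0.43 with the offset. Of 7 metabotropic glutamate receptors 2 were lower in both fits. Grm3, the Gi-coupled receptor of astrocytes and neurons, had 394, 451 and 359 CPM in Control and 201, 155 and 168 CPM in Ketamine. Every Ketamine value lay far under the lowest Control value, and Grm3 had the smallest edgeR adjusted p of the comparison together with Taok1 (0.00033). Its log2 fold change of −1.20 became −0.95 with the offset. Grm5, the postsynaptic Gq-coupled receptor, had 175, 153 and 194 CPM in Control and 136, 117 and 118 CPM in Ketamine (edgeR log2 fold change −0.49, SE 0.086, adjusted p = 0.0028; with the offset −0.30, adjusted p = 0.042 by edgeR).

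Postsynaptic scaffolds hold these receptors at the synapse. Of 22 tested, 9 were called lower and 1 higher (45.5% against 16.7% of all genes), and 4 lower and 1 higher in both fits (6 calls without Ketamine replicate 2). Shank1, a master scaffold of spines, had 722, 972 and 721 CPM in Control and 505, 399 and 371 CPM in Ketamine (edgeR log2 fold change −0.92, SE 0.13, adjusted p = 0.0018; with the offset −0.70, adjusted p = 0.0058 by edgeR). Homer2, which links metabotropic receptors to calcium stores, had 15.3, 21.5 and 15.3 CPM in Control and 11.4, 9.33 and 8.85 CPM in Ketamine (edgeR log2 fold change −0.82, SE 0.17, adjusted p = 0.0084). Camk2a, the calcium-dependent kinase of long-term potentiation, had 1054, 1474 and 977 CPM in Control and 881, 776 and 784 CPM in Ketamine (edgeR log2 fold change −0.52, SE 0.13, adjusted p = 0.020). Control replicate 2 was the highest library for all 3 genes, and the groups stayed apart. Dlgap2 was the fourth lower member in both fits (−0.40), while Dlg2, Sipa1l1, Shank2 and Shank3 were called without the offset and not with it (from −0.50, −0.36, −0.41 and −0.64 to −0.25, −0.16, −0.17 and −0.42). Nrgn, the calmodulin-binding protein neurogranin, went the other way, with 946, 889 and 962 CPM in Control and 1272, 1330.1 and 1244 CPM in Ketamine (edgeR log2 fold change 0.46, SE 0.066, adjusted p = 0.0011). Members of a list beyond the 4 with the smallest p are named here and below after their values were seen.

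Synaptic adhesion molecules and the release machinery gave mixed directions. Of 25 adhesion genes 5 were lower and 1 higher (3 calls without Control replicate 1, 10 without Control replicate 2, 2 without Ketamine replicate 2 or 3), and in both fits 2 and 1. Cadm2 had 42.1, 41.4 and 44.0 CPM in Control and 25.5, 29.5 and 27.9 CPM in Ketamine (edgeR log2 fold change −0.62, SE 0.068, adjusted p = 0.00035). LRRTM1, a postsynaptic adhesion protein, rose by 0.32. Ptprd, a receptor phosphatase that induces presynapses, was called lower at −0.26, a value that went to 0.00433 with the offset. Of 28 presynaptic genes 6 were lower and 2 higher (5 calls without Ketamine replicate 2 or 3), and 3 and 1 in both fits. The active zone scaffolds Rims1, Rims2 and Pclo were lower in both: Rims1 had 359, 466 and 335 CPM in Control and 258, 235 and 251 CPM in Ketamine, and Rims2 and Pclo had log2 fold changes of −0.45 and −0.65 (−0.25 and −0.36 with the offset). Of the 6 offset fits that each left out a library, 2 called Rims1, 1 called Rims2 and 2 called Pclo. Syp, the vesicle protein synaptophysin, was higher, with 1289.9, 1085 and 1363 CPM in Control and 1612, 1671 and 1697 CPM in Ketamine (edgeR log2 fold change 0.41, SE 0.082, adjusted p = 0.0053). Active zone scaffolds have long transcripts and synaptophysin a shorter one, with implied lengths of 17.7 kb for Pclo and 2.61 kb for Syp.

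Signalling through BDNF, mTOR and the elongation factor kinase is the pathway most often tied to ketamine. Of 28 genes in this list 10 were called lower and 1 higher (5 calls without Ketamine replicate 2), and 4 and 1 in both fits, while the median went from −0.16 to −0.02 with the offset. Bdnf itself had 27.2, 20.5 and 30.8 CPM in Control and 29.2, 35.9 and 30.9 CPM in Ketamine, which overlapped (edgeR log2 fold change 0.29, SE 0.13, adjusted p = 0.164). Ntrk2, its receptor, had 907, 1194 and 836 CPM in Control and 651, 578 and 581 CPM in Ketamine (edgeR log2 fold change −0.70, SE 0.11, adjusted p = 0.0024; with the offset −0.50, adjusted p = 0.018 by edgeR). Eif4ebp2, the repressor of cap-dependent translation under mTOR, had 24.5, 26.5 and 22.3 CPM in Control and 16.4, 15.4 and 20.4 CPM in Ketamine (edgeR log2 fold change −0.49, SE 0.11, adjusted p = 0.0087). Mtor had 135, 132 and 145 CPM in Control and 129, 129 and 121 CPM in Ketamine, without overlap but also without a call (edgeR log2 fold change −0.12, SE 0.059, adjusted p = 0.189), and Eef2k stood at −0.30 on the log2 scale (edgeR adjusted p = 0.029), called only without the offset. Vgf, a neuropeptide precursor induced by BDNF, had 74.2, 69.9 and 85.1 CPM in Control and 98.7, 106 and 90.4 CPM in Ketamine (edgeR log2 fold change 0.36, SE 0.095, adjusted p = 0.021). Crebbp, Gsk3b, Creb1 and Tsc1 were called lower only without the offset, where their values of −0.35, −0.32, −0.27 and −0.22 became −0.09, −0.11, −0.07 and 0.02.

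Activity-regulated genes are switched on within minutes to hours of neuronal firing. Of 30 tested, 3 were called (a smaller share than the 16.7% of all genes), each higher and in both fits. Jund, an AP-1 transcription factor, had 72.2, 69.1 and 67.4 CPM in Control and 96.9, 92.3 and 96.2 CPM in Ketamine (edgeR log2 fold change 0.45, SE 0.061, adjusted p = 0.00070). Egr3, an early growth response factor, had 63.4, 69.1 and 80.3 CPM in Control and 122, 105 and 93.3 CPM in Ketamine (edgeR log2 fold change 0.59, SE 0.11, adjusted p = 0.0059). Nptx2, a secreted pentraxin that clusters AMPA receptors, had 26.5, 24.7 and 27.7 CPM in Control and 57.0, 39.1 and 35.3 CPM in Ketamine (edgeR log2 fold change 0.74, SE 0.16, adjusted p = 0.011). The highest Ketamine values of Egr3 and Nptx2 were both in replicate 1. The classical early genes were not called. Fos had 9.04, 7.18 and 7.49 CPM in Control and 5.93, 8.80 and 17.2 CPM in Ketamine, Arc had 68.4, 66.7 and 27.4 CPM in Control and 55.4, 82.8 and 90.4 CPM in Ketamine, and Npas4 had 10.6, 6.47 and 6.85 CPM in Control and 8.38, 12.2 and 31.4 CPM in Ketamine. Ketamine replicate 3 was the highest library for each of these, the groups overlapped, and the 95% intervals of the log2 fold changes were −1.09 to 1.96, −1.29 to 2.28 and −0.25 to 2.50. Egr1 had 62.4, 54.4 and 74.9 CPM in Control and 45.6, 56.9 and 72.4 CPM in Ketamine, also with overlap (log2 fold change −0.13).

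GABA is the main inhibitory transmitter of cortex. Of 21 GABA genes 8 were called lower and 1 higher (5 calls without Ketamine replicate 2), all 9 in both fits, against 6.47% of all genes called in both. Gad2, which makes GABA at terminals, had 79.2, 68.4 and 77.5 CPM in Control and 56.2, 48.1 and 41.1 CPM in Ketamine (edgeR log2 fold change −0.63, SE 0.098, adjusted p = 0.0018). Slc6a11, the GABA transporter of astrocytes, had 54.4, 68.5 and 52.8 CPM in Control and 39.6, 32.4 and 34.9 CPM in Ketamine (edgeR log2 fold change −0.72, SE 0.12, adjusted p = 0.0032). Gabrg1 had 115, 160.4 and 107 CPM in Control and 88.9, 81.6 and 88.6 CPM in Ketamine, where Control replicate 2 stood above the rest. Among the receptor subunits called lower, Gabrb1, Gabra2, Gabrg1 and Gabrg3 had log2 fold changes of −0.52, −0.38, −0.56 and −0.56, and Abat, which breaks GABA down, had −0.32. Gabrd, a subunit of extrasynaptic receptors that respond to ambient GABA, was the higher member, with 33.1, 32.0 and 37.1 CPM in Control and 45.3, 42.4 and 43.7 CPM in Ketamine (edgeR log2 fold change 0.36, SE 0.068, adjusted p = 0.0038). Gad1, the other synthesis enzyme, was not called, with 203, 187 and 215 CPM in Control and 201, 186 and 190.3 CPM in Ketamine.

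Interneuron markers moved in both directions. Of 20 tested, 3 were called higher and 3 lower, and 2 and 2 in both fits. Erbb4, the neuregulin receptor of interneurons, had 37.8, 33.4 and 31.2 CPM in Control and 18.9, 12.3 and 12.5 CPM in Ketamine (edgeR log2 fold change −1.23, SE 0.14, adjusted p = 0.00051). Nos1, which marks neurons that make nitric oxide, had 51.5, 53.8 and 61.9 CPM in Control and 42.3, 37.6 and 33.0 CPM in Ketamine (edgeR log2 fold change −0.57, SE 0.096, adjusted p = 0.0025). Cck, a peptide of some basket cells that excitatory neurons also make, was higher with 191, 185 and 219.6 CPM in Control and 261, 319 and 295 CPM in Ketamine (edgeR log2 fold change 0.56, SE 0.081, adjusted p = 0.0011), and Lamp5 rose by 0.38. Pvalb, the marker of fast-spiking interneurons, had 29.6, 28.6 and 31.1 CPM in Control and 38.2, 38.1 and 38.6 CPM in Ketamine, a rise of 0.36 that was not called with the offset (0.19, adjusted p = 0.254 by edgeR). Sst had 50.5, 37.5 and 49.97 CPM in Control and 49.0, 63.7 and 52.8 CPM in Ketamine, with overlap. In bulk tissue, fewer cells of a type and less RNA per cell cannot be told apart, here and in every list of cell markers.

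Of 13 upper-layer markers 5 were called lower (1 call without Ketamine replicate 2, 2 without Ketamine replicate 3) and none in both fits. Their values without and with the offset were −0.42 and −0.22 for Cux2, and −0.43 and −0.20 for Rorb. Of 19 deep-layer markers 4 were lower and 1 higher (3 calls without Control replicate 1 or Ketamine replicate 3, 10 without Control replicate 2, 2 without Ketamine replicate 2), and 3 and 1 in both fits. Crym, a thyroid hormone binding protein of deep-layer neurons, had 149.96, 127 and 175 CPM in Control and 204, 240.4 and 216 CPM in Ketamine (edgeR log2 fold change 0.55, SE 0.099, adjusted p = 0.0036). Ntsr1, a receptor of layer 6 neurons that project to thalamus, had 2.03, 3.51 and 2.57 CPM in Control and 0.948, 1.53 and 0.984 CPM in Ketamine (edgeR log2 fold change −1.23, SE 0.26, adjusted p = 0.0076), and Syt6, another layer 6 gene, had 3.07, 2.31 and 3.02 CPM in Control and 2.05, 1.10 and 1.504 CPM in Ketamine (edgeR log2 fold change −0.84, SE 0.24, adjusted p = 0.032). Ntng2 fell by a smaller amount, with a log2 fold change of −0.46. Ntsr1 and Syt6 were low in every library, and their calls stayed in 9 and 5 of 9 fits that left out a library.

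The lists of glial, endothelial and pericyte genes held lower calls and no higher one. Astrocytes clear glutamate and potassium from the extracellular space. Of 24 astrocyte genes 11 were called lower and none higher (45.8%), 7 of them in both fits (7 calls without Ketamine replicate 2 or 3), and the median was −0.36 without and −0.34 with the offset. Slc1a2, the main glutamate transporter of the forebrain, had 413, 572 and 382 CPM in Control and 177, 143 and 139 CPM in Ketamine, so that Ketamine stood at 0.336 times Control (edgeR log2 fold change −1.57, SE 0.17, adjusted p = 0.00064; with the offset −1.71, adjusted p = 0.0012 by edgeR). Its implied length was 1.16 kb, and whether that covers the full transcript was not tested. Slc7a11, which exchanges cystine for glutamate, had 190.4, 221 and 147 CPM in Control and 103, 96.5 and 101 CPM in Ketamine (edgeR log2 fold change −0.89, SE 0.13, adjusted p = 0.0018). Kcnj10, the potassium channel Kir4.1, had 91.8, 148 and 89.2 CPM in Control and 58.3, 51.9 and 46.8 CPM in Ketamine (edgeR log2 fold change −1.07, SE 0.20, adjusted p = 0.010). In all of these Control replicate 2 was the highest library, yet every Ketamine value lay under every Control value. Aqp4, the water channel of endfeet, and Slc4a4, a bicarbonate transporter, fell by 0.69 and 0.72. Slc1a3 and Gja1 were called at −0.63 and −0.51 and missed the threshold with the offset (edgeR adjusted p = 0.053 and 0.053).

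The fall was not shared by each astrocyte gene. Gfap, the filament protein that rises in reactive astrocytes, had 346, 482 and 306 CPM in Control and 386, 385 and 413 CPM in Ketamine (edgeR log2 fold change 0.06, SE 0.14, adjusted p = 0.799). Aldoc and S100b, both abundant in astrocytes, had 568, 805 and 554 CPM in Control and 625, 651 and 632 CPM in Ketamine for Aldoc, and a log2 fold change of −0.11 for S100b. All 3 overlapped between groups. The summed CPM of the whole list was 9639.6, 13354 and 8587 in Control and 8220.2, 7589.7 and 7900.0 in Ketamine. The part of astrocyte number in the single-gene results was not tested.

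Endothelial cells form the blood-brain barrier, and all 20 tested markers had negative log2 fold changes. Of these 10 were called lower, 8 in both fits, and the median was −0.51 (−0.44 with the offset). Abcb1a, the drug efflux pump P-glycoprotein, had 63.7, 89.6 and 61.3 CPM in Control and 37.9, 38.1 and 31.4 CPM in Ketamine (edgeR log2 fold change −0.998, SE 0.13, adjusted p = 0.0011). Flt1, a receptor of vascular endothelial growth factor, had 105, 129.8 and 84.3 CPM in Control and 57.1, 59.5 and 47.0 CPM in Ketamine (edgeR log2 fold change −0.96, SE 0.15, adjusted p = 0.0024). Vwf, the clotting factor carrier made by endothelium, had 67.1, 84.6 and 65.3 CPM in Control and 38.6, 41.0 and 38.9 CPM in Ketamine (edgeR log2 fold change −0.87, SE 0.14, adjusted p = 0.0027). The Ketamine values were close together in each, and the lowest Control value, in replicate 3, stood above them. Tjp1 and Ocln, proteins of the tight junction, fell by 0.57 and 0.67, Slco1a2 and Abcg2, transporters of the barrier, fell by 0.75 and 0.94, and Tek, the angiopoietin receptor, fell by 0.58. Cldn5, the main claudin of the barrier, had 51.7, 62.3 and 46.3 CPM in Control and 43.4, 52.7 and 41.1 CPM in Ketamine, with overlap and no call (log2 fold change −0.23). Summed over the list, CPM was 1012, 1279 and 926 in Control and 716, 739 and 674 in Ketamine.

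Pericytes wrap the capillaries. Of 14 pericyte and smooth muscle genes 4 were lower, 3 in both fits. The list as a whole was mixed, with 6 positive and 8 negative log2 fold changes and a median of −0.107 (−0.114 with the offset). Rgs5, a regulator of G protein signalling that marks pericytes, had 33.3, 39.5 and 24.6 CPM in Control and 13.5, 11.1 and 10.4 CPM in Ketamine (edgeR log2 fold change −1.47, SE 0.17, adjusted p = 0.00060). Notch3, the receptor mutated in a hereditary small vessel disease, had 26.6, 31.6 and 24.3 CPM in Control and 14.8, 12.8 and 11.8 CPM in Ketamine (edgeR log2 fold change −1.07, SE 0.14, adjusted p = 0.00067), and Abcc9, a potassium channel regulator, had 16.2, 21.0 and 13.1 CPM in Control and 8.81, 9.51 and 6.57 CPM in Ketamine (edgeR log2 fold change −1.02, SE 0.19, adjusted p = 0.0047). Ketamine stood at 0.360, 0.478 and 0.494 times Control. The summed list gave 241, 271 and 200.2 CPM in Control and 155, 151 and 225 in Ketamine, where Ketamine replicate 3 lay within the Control range.

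Of 12 markers of oligodendrocyte precursors 5 were lower (3 calls without Ketamine replicate 2 or 3), 3 in both fits: Sox6 had 31.6, 36.4 and 26.0 CPM in Control and 18.1, 16.4 and 16.7 CPM in Ketamine (edgeR log2 fold change −0.88, SE 0.11, adjusted p = 0.00054), and Gpr17 and Vcan fell by 0.79 and 0.84. Of 16 genes of mature oligodendrocytes 3 were lower (0 calls without Ketamine replicate 2), and only Ugt8, a myelin lipid enzyme, in both fits (−0.48). Mbp, the myelin basic protein, had 751, 1339 and 841 CPM in Control and 902, 696 and 859 CPM in Ketamine. It overlapped between groups, with Control replicate 2 far above the other 5 libraries. Of 15 microglial genes 5 were lower (3 calls without Control replicate 1 or Ketamine replicate 3, 2 without Ketamine replicate 1 or 2), 3 in both fits, among them Cx3cr1 (−0.46) and P2ry12 (−0.60), and Siglech was at 0 in all 6 libraries. Without the offset 5 microglial genes had positive and 10 negative log2 fold changes, with a median of −0.30. With the offset 0 were positive and the median was −0.28. Cx3cr1, the fractalkine receptor, had 25.0, 30.9 and 23.1 CPM in Control and 18.9, 19.1 and 19.6 CPM in Ketamine, and P2ry12, the purine receptor of resting microglia, had 53.7, 66.9 and 42.1 CPM in Control and 34.7, 37.1 and 35.2 CPM in Ketamine.

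Meningeal markers had mostly positive values but no call. All but 1 of 14 had positive log2 fold changes, with a median of 0.76 (0.83 with the offset), and the summed CPM was 877, 468 and 538 in Control and 1641, 945 and 1206 in Ketamine. The spread within each group was large. Ptgds, the prostaglandin synthase of the leptomeninges, had 638, 326 and 383 CPM in Control and 1276, 701 and 919 CPM in Ketamine (edgeR log2 fold change 1.10, SE 0.53, adjusted p = 0.220), and Foxc2, a transcription factor of meningeal cells, had 1.67, 0.702 and 1.16 CPM in Control and 3.27, 2.35 and 3.53 CPM in Ketamine (edgeR log2 fold change 1.37, SE 0.53, adjusted p = 0.104). Neither gene overlapped between groups and neither was called. No blood cell marker of 8 was called (1 call without Control replicate 3). Of 11 striatal markers Ppp1r1b alone was called (9.09%), at 0.31 and not with the offset (0 calls without Control replicate 1 or 3 or Ketamine replicate 1, 2 or 3, 2 without Control replicate 2), with Isl1 and Six3 at 0, and 2 of 10 choroid plexus and ependymal markers were lower (1 call without Control replicate 1 or 2 or Ketamine replicate 2 or 3), with Folr1, Otx2, Clic6 and Tmem212 at 0.

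**Figure D4:**
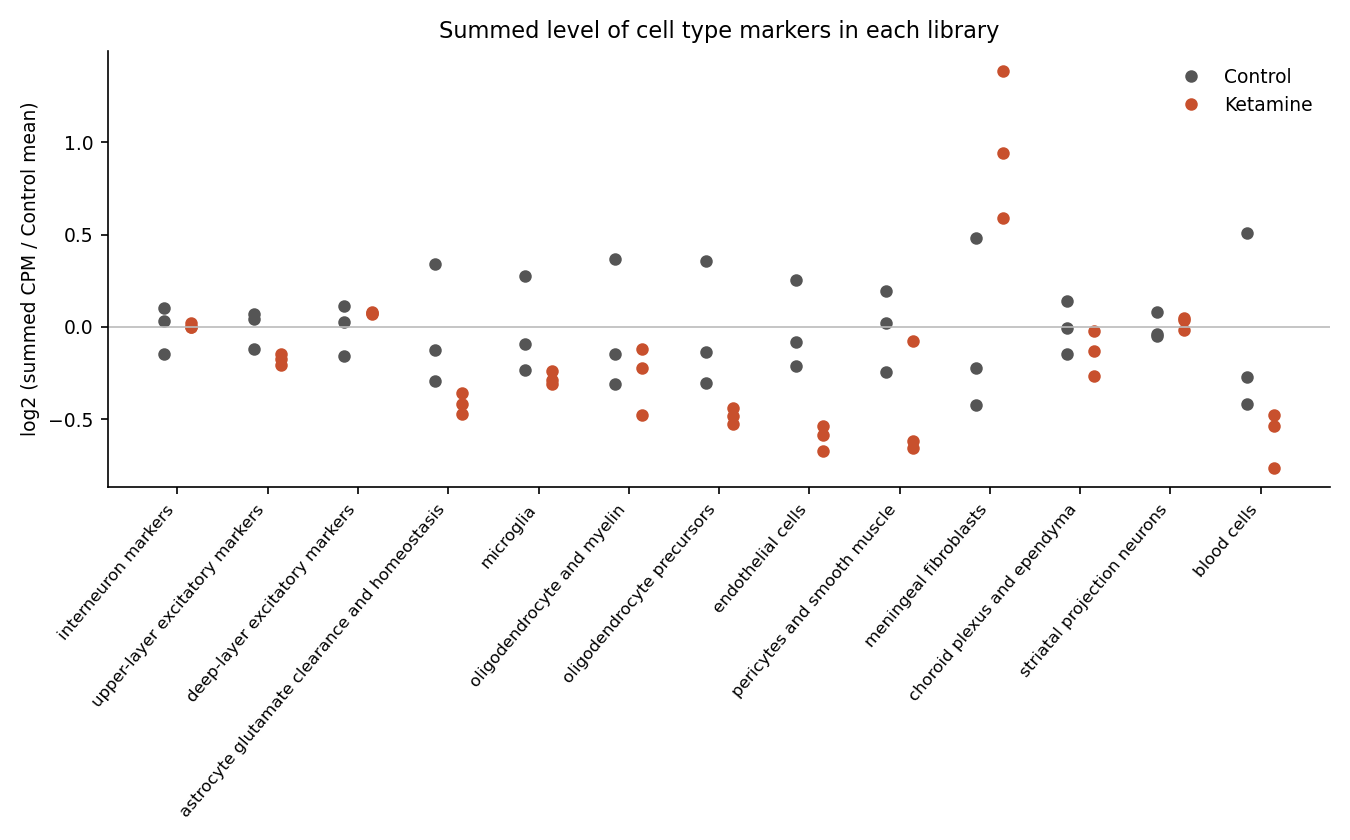
Summed CPM of each cell marker list in each of the 6 libraries, as log2 of its ratio to the mean of the Control libraries. Control replicate 2 is the highest Control library for astrocyte, microglia, oligodendrocyte, precursor, endothelial, pericyte, choroid plexus and blood cell markers. The 3 Ketamine libraries lie under all 3 Control libraries for endothelial markers (from 674 to 739 CPM against 926 to 1279). They also do so for astrocyte, microglia, precursor, blood cell and upper-layer markers, for microglia only just (highest 448.3 against lowest 449.9). For meningeal markers they lie above all 3 Control libraries.

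Genes of the extracellular matrix held lower calls as well. Perineuronal nets are sheaths of lecticans, link proteins and tenascin around inhibitory neurons. Of 12 net genes 6 were called lower, 5 in both fits, with a median of −0.49 (−0.31 with the offset). Ncan, the lectican neurocan, had 125, 142 and 129.6 CPM in Control and 101, 89.2 and 89.1 CPM in Ketamine (edgeR log2 fold change −0.50, SE 0.072, adjusted p = 0.0011). Hapln1, the link protein, had 92.9, 109.9 and 74.6 CPM in Control and 53.3, 51.0 and 58.3 CPM in Ketamine (edgeR log2 fold change −0.77, SE 0.11, adjusted p = 0.0016). Ptprz1, a receptor phosphatase of glia that binds the nets, had 477, 619 and 376 CPM in Control and 283, 264 and 276 CPM in Ketamine (edgeR log2 fold change −0.84, SE 0.14, adjusted p = 0.0038). These genes are also made by astrocytes and oligodendrocyte precursors, whose summed levels were also under all Control values in the Ketamine libraries, and the part of those cells was not tested. Tnc fell by 0.72, and Tnr, called lower at −0.48, was not called with the offset. Of 30 collagens, laminins and integrins 11 were lower and 1 higher (5 calls without Ketamine replicate 2), and 4 and 1 in both fits. Fn1, fibronectin, had 127, 155 and 118 CPM in Control and 87.5, 78.9 and 76.9 CPM in Ketamine (edgeR log2 fold change −0.72, SE 0.10, adjusted p = 0.0014), and Itgb8 and Itgb1 fell by 0.69 and 0.57. The basement membrane genes Col4a1 and Lamc1 were called at −0.36 and −0.40, and had −0.16 and −0.17 with the offset, where they were not.

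Among receptors for modulators single genes were called. Of 26 monoamine genes 3 were lower and 1 higher, all of them in both fits (7 calls without Control replicate 3, 2 without Ketamine replicate 1 or 2). The share called was 15.4%, against 16.7% of all genes. Adra1a, an alpha-1 adrenergic receptor, had 25.9, 25.4 and 25.7 CPM in Control and 16.4, 12.7 and 12.5 CPM in Ketamine (edgeR log2 fold change −0.89, SE 0.10, adjusted p = 0.00038). Adra1d, its relative, had 31.6, 32.4 and 43.4 CPM in Control and 54.5, 46.9 and 50.8 CPM in Ketamine (edgeR log2 fold change 0.50, SE 0.11, adjusted p = 0.0086). The 2 receptors for noradrenaline thus changed in opposite directions, each without overlap. Slc22a3 and Slc29a4, low-affinity transporters of monoamines, fell by 0.75 and 0.37. Pdyn, the precursor of the opioid peptide dynorphin, had 17.9, 15.9 and 19.2 CPM in Control and 25.8, 22.01 and 22.1 CPM in Ketamine (edgeR log2 fold change 0.40, SE 0.092, adjusted p = 0.012) and was the call among 8 opioid genes (12.5%, and 2 calls without Ketamine replicate 1). Bche was the only call among 17 cholinergic genes (5.88%, and 3 calls without Control replicate 2). Of 16 genes of adenosine metabolism 3 were called (0 calls without Control replicate 2 or Ketamine replicate 3, 6 without Control replicate 3, 1 without Ketamine replicate 2), and 1 lower in both fits. Slc29a1, a nucleoside transporter, fell by 0.46. Ampd3 fell by 0.29 and was not called with the offset (−0.19, adjusted p = 0.226 by edgeR). Ada, adenosine deaminase, had 0.508, 0.234 and 0.693 CPM in Control and 2.05, 1.07 and 1.76 CPM in Ketamine (log2 fold change 1.76, edgeR adjusted p = 0.030, and 0.055 with the offset). Of 18 retinoic acid genes only Rbp4, a retinol carrier, was called (5.56%), at 0.77 and not with the offset (0 calls without Control replicate 2 or Ketamine replicate 1 or 3).

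Of 19 corticosteroid and stress-axis genes 4 were lower and 2 higher (2 calls without Ketamine replicate 2 or 3), and 2 lower in both fits. Nr3c1, the glucocorticoid receptor, had 96.2, 98.6 and 86.9 CPM in Control and 77.9, 67.1 and 71.6 CPM in Ketamine (edgeR log2 fold change −0.38, SE 0.068, adjusted p = 0.0031), but −0.18 (adjusted p = 0.102 by edgeR) with the offset. Klf9, a transcription factor induced by glucocorticoids, had 67.9, 78.2 and 79.1 CPM in Control and 58.9, 54.6 and 57.7 CPM in Ketamine (edgeR log2 fold change −0.40, SE 0.082, adjusted p = 0.0065), and Mertk, a receptor for engulfing cell debris, fell by 0.61. Both remained called with the offset. Fkbp5, the best known glucocorticoid target, had 26.3, 37.6 and 39.7 CPM in Control and 33.3, 41.6 and 38.2 CPM in Ketamine. Its groups overlapped and it was not called (edgeR log2 fold change 0.13, SE 0.14, adjusted p = 0.591).

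The circadian clock is a loop in which Arntl (Bmal1) and Clock activate Per, Cry, Nr1d and Bhlhe genes through E-boxes, and the products of those genes repress the loop. Of 21 clock genes 9 were called lower and 2 higher (52.4%), and 5 and 2 in both fits, with a median of −0.23 (−0.10 with the offset). The sequences of 3 promoters show the elements of that loop in genes called here. They are RefSeq sequences of assembly GRCr8, 250 bases before to 50 after the gene's start, printed 5′ to 3′, in capitals where the motif was found. Bmal1 (chr1:176766078-176766377, plus strand) holds TAGGTCA preceded by 2 free bases, the element that Nr1d and Ror proteins bind, Bhlhe41 (chr4:180569306-180569605, minus strand) an E-box (CACGTG), and Per2 (chr9:99496944-99497243, minus strand) a D-box (TTATGTAA), the element of Dbp and Nfil3.
Bmal1: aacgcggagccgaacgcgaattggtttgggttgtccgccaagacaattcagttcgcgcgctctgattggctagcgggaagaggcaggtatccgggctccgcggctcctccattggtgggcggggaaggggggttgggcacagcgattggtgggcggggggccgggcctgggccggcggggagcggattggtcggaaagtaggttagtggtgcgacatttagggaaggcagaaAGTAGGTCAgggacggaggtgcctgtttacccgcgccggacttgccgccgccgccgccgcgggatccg
Bhlhe41: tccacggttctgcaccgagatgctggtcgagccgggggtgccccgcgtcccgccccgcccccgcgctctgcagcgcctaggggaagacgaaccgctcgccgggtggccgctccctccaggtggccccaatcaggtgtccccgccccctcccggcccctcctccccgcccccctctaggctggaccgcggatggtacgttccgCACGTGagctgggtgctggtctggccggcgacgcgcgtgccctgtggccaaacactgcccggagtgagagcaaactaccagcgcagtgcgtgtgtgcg
Per2: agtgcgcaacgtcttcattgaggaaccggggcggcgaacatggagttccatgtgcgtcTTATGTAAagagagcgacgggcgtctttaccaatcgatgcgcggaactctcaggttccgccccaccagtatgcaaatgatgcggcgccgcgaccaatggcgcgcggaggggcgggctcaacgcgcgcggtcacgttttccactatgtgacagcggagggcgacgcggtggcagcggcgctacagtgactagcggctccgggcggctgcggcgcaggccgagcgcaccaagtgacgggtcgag
Both strands were searched in the promoters of 18 matched clock genes. The E-box was in 5 of them, 2 of which were among the 8 matched genes called lower, and in 6.42% of 33469 RefSeq promoters. The counts among the 18 are of genes with a match in any of their windows, while the shares are of single windows. Nr1d1 and Clock have more than 1 window, and Nr1d1 held its E-box in only 1 of them. The Nr1d and Ror element was in 1 of 18 (2.61% of all), the D-box TTATGTAA in 1 (0.893%) and the D-box TTACGTAA in 0 (0.12%). The cyclic AMP response element TGACGTCA (1.83%) and the glucocorticoid response element (0.439%) were in none. A match is a description of these windows and says nothing of binding.

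On the activating side, Arntl had 29.8, 27.8 and 29.6 CPM in Control and 36.4, 36.3 and 36.8 CPM in Ketamine (edgeR log2 fold change 0.33, SE 0.060, adjusted p = 0.0037; with the offset 0.36, adjusted p = 0.0071 by edgeR). The Ketamine values were nearly equal, and no value overlapped. Among the repressors, Nr1d2 had 152, 148 and 145 CPM in Control and 109.7, 103 and 115 CPM in Ketamine (edgeR log2 fold change −0.44, SE 0.056, adjusted p = 0.00057). Per3 had 42.5, 47.2 and 41.8 CPM in Control and 33.0, 31.1 and 30.2 CPM in Ketamine (edgeR log2 fold change −0.48, SE 0.088, adjusted p = 0.0036), and Cry1 had 11.3, 16.1 and 14.2 CPM in Control and 8.78, 9.76 and 10.2 CPM in Ketamine (edgeR log2 fold change −0.53, SE 0.13, adjusted p = 0.013). Bhlhe41, which competes for E-boxes, had 73.2, 79.0 and 64.9 CPM in Control and 54.6, 56.9 and 55.8 CPM in Ketamine (edgeR log2 fold change −0.38, SE 0.071, adjusted p = 0.0043). Per2 and Rora, with long transcripts, had log2 fold changes of −0.47 and −0.48, but −0.28 and −0.20 with the offset, where neither was called. Of the output factors that bind D-boxes, Dbp, an activator, had 165, 172 and 152 CPM in Control and 124, 138 and 139 CPM in Ketamine (edgeR log2 fold change −0.29, SE 0.070, adjusted p = 0.015; with the offset −0.33, adjusted p = 0.011 by edgeR). Nfil3, the repressor at the same sites, had 3.09, 3.85 and 3.76 CPM in Control and 6.05, 7.59 and 7.12 CPM in Ketamine (edgeR log2 fold change 0.95, SE 0.18, adjusted p = 0.0044), and so was higher where Dbp was lower. The sources used here do not state the hour at which the 2 groups were dissected, so time of day and treatment cannot be told apart for these genes.

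The lists of the nuclear respiratory chain, ribosomal proteins and the proteasome held higher calls and no lower one, and most of these were lost with the offset. The nuclear genes of the respiratory chain had a median length of 0.722 kb. Of 74 tested 42 were called higher (56.8%) and none lower, but 7 in both fits, and the median of 0.25 became 0.09. Cyc1, the cytochrome c1 of complex III, had 119, 115 and 127 CPM in Control and 179, 174 and 195 CPM in Ketamine (edgeR log2 fold change 0.60, SE 0.095, adjusted p = 0.0020; with the offset 0.48, adjusted p = 0.012 by edgeR). Atp5d, a subunit of ATP synthase, had 85.5, 85.6 and 91.7 CPM in Control and 117, 122 and 113 CPM in Ketamine (edgeR log2 fold change 0.42, SE 0.058, adjusted p = 0.00075; with the offset 0.28, adjusted p = 0.019 by edgeR). Uqcr11 and Ndufb3, of complexes III and I, rose by 0.45 and 0.47, and 0.26 and 0.29 with the offset. The number of calls in the list was 26 without Control replicate 1, 15 without Ketamine replicate 2 and 21 without Ketamine replicate 3.

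The genes of the mitochondrial genome had the opposite sign. All 13 had negative log2 fold changes and 5 were called lower, also in both fits, while the offset fit called 11, with a median of −0.54 (−0.68 with the offset). ND5, a subunit of complex I, had 7045, 10017 and 5544 CPM in Control and 4837, 4191 and 4535 CPM in Ketamine (edgeR log2 fold change −0.74, SE 0.17, adjusted p = 0.013). Control replicate 2 was the highest library and Ketamine the lowest 3. ND4L, ND6, ND4 and ATP6 had log2 fold changes of −0.79, −0.76, −0.65 and −0.59. No member was called without Ketamine replicate 2, 3 were called without Control replicate 1, Control replicate 2 or Ketamine replicate 3, and 13 without Control replicate 3. The libraries were made by poly(A) selection, per the kit named in the labels, and the part of that step in the level of mitochondrial RNA was not tested.

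Cytosolic ribosomal protein genes, at a median of 0.641 kb, had 12 of 79 higher (15.2%, against 16.7% of all genes called) and none lower, with 76 positive values and a median of 0.15 that turned to −0.02 with the offset. The list depended on single libraries, with 61 calls without Control replicate 2, 5 without Control replicate 1, 4 without Ketamine replicate 2 and 3 without Ketamine replicate 3. Rpl36, Rpl41 and Rps27 were called in both fits, with 0.42, 0.44 and 0.42, and near-identical copies of these genes make their counts uncertain. Proteasome subunits had 18 of 32 higher (56.2%), 5 in both fits (9 calls without Ketamine replicate 2, 11 without Ketamine replicate 3), and a median of 0.22 (0.10 with the offset). Psmb7, a catalytic subunit of the core, had 80.0, 74.9 and 80.6 CPM in Control and 103, 111 and 108 CPM in Ketamine (edgeR log2 fold change 0.45, SE 0.059, adjusted p = 0.00060; with the offset 0.30, adjusted p = 0.013 by edgeR). Psmd3, Psmc3, Psmd8 and Psmd4, of the regulatory particle, also stayed called, at 0.35, 0.31, 0.28 and 0.22.

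Protein modification and sorting gave single genes. Of 32 neddylation genes 7 were higher and 2 lower (3 calls without Control replicate 1, 2 without Ketamine replicate 2 or 3), and 2 higher in both fits. Nedd8, the ubiquitin-like modifier itself, had 60.4, 57.4 and 60.2 CPM in Control and 85.4, 85.9 and 84.4 CPM in Ketamine (edgeR log2 fold change 0.52, SE 0.053, adjusted p = 0.00034; with the offset 0.35, adjusted p = 0.0056 by edgeR), and Gps1, a subunit of the COP9 signalosome that removes it, rose by 0.33. The values of Nedd8 were tight within each group and far apart between groups, which its choice by smallest p favours. Of 35 ESCRT and retromer genes 6 were higher and 2 lower (4 calls without Control replicate 1 or Ketamine replicate 2, 3 without Ketamine replicate 3), and 2 and 1 in both fits. Sorcs3, a sorting receptor of the postsynapse, had 35.0, 30.4 and 34.1 CPM in Control and 53.7, 55.9 and 48.4 CPM in Ketamine, and its log2 fold change of 0.67 grew to 0.85 with the offset. Vps28, of the first ESCRT complex, had 51.0, 49.5 and 53.1 CPM in Control and 70.0, 73.8 and 75.6 CPM in Ketamine (edgeR log2 fold change 0.51, SE 0.060, adjusted p = 0.00038). Of 15 genes of hypusine and polyamine synthesis 4 were higher and 1 lower (2 calls without Control replicate 1 or Ketamine replicate 2 or 3), and 1 higher in both fits. Dohh, which completes hypusine on the translation factor eIF5A, had 33.5, 34.1 and 45.4 CPM in Control and 74.0, 74.5 and 84.1 CPM in Ketamine (edgeR log2 fold change 1.04, SE 0.13, adjusted p = 0.00067), and Eif5a and Eif5a2 had 0.21 and −0.33, neither called with the offset. Of 18 heat shock genes Hspa8 (0.30) and Hspe1 (0.32) were higher, Hspa8 in both fits (5 calls without Control replicate 3, 0 without Ketamine replicate 2 or 3). The share called was 11.1%, under the 16.7% of all genes, and 17 members had positive values.

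Of 24 genes of the stress-kinase cascade 4 were lower and 1 higher (3 calls without Control replicate 1 or Ketamine replicate 3, 2 without Ketamine replicate 2), and 2 and 1 in both fits. Taok1, which phosphorylates kinases upstream of p38 and JNK, had 72.0, 72.4 and 75.3 CPM in Control and 42.8, 32.8 and 34.2 CPM in Ketamine (edgeR log2 fold change −1.001, SE 0.086, adjusted p = 0.00033; with the offset −0.96, adjusted p = 0.00019 by edgeR). Map3k2 had 6.65, 6.55 and 6.21 CPM in Control and 4.13, 2.92 and 2.92 CPM in Ketamine (edgeR log2 fold change −0.96, SE 0.16, adjusted p = 0.0022), and Mapk11, the beta isoform of p38, rose by 0.28. Each of these groups was free of overlap. Of 19 interferon and inflammation genes Tlr4 alone was called (5.26%), at −0.99 and from low levels (0 calls without Control replicate 3 or Ketamine replicate 3).

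The chromatin and channel lists held mainly lower calls, most of them lost with the offset. Of 33 chromatin and long-transcript regulators, at a median of 9.71 kb, 23 were lower (69.7%) and none higher, but 3 in both fits (12 calls without Ketamine replicate 2 or 3). The median of −0.31 became −0.07 with the offset. Long transcripts were part of what this list was written for, so lower calls that the offset removes were partly built in. Kmt2c, a histone H3 methyltransferase, and Ankrd12, which binds histone deacetylases, were lower in both fits together with Tet1, a DNA demethylase, and were at −0.54 and −0.50, or −0.25 and −0.24 with the offset. Of 36 voltage-gated channels 9 were lower and 1 higher (2 calls without Control replicate 1, 19 without Control replicate 2, 6 without Control replicate 3, 3 without Ketamine replicate 2 or 3), and 2 lower in both fits. These were Kcnq3, a subunit of the M current, with 99.5, 84.7 and 114 CPM in Control and 72.5, 61.2 and 59.0 CPM in Ketamine (edgeR log2 fold change −0.63, SE 0.11, adjusted p = 0.0027), and Kcna1, an axonal potassium channel, with 19.3, 18.2 and 22.3 CPM in Control and 13.5, 11.8 and 14.4 CPM in Ketamine (edgeR log2 fold change −0.59, SE 0.11, adjusted p = 0.0038). The sodium channels Scn1a, Scn2a and Scn8a were called at −0.33, −0.34 and −0.45 and had −0.10, −0.10 and −0.26 with the offset, where they were not. Of 32 Zbtb factors 5 were lower (15.6%, against 16.7% of all genes), and 4 in both fits: Zbtb20, Zbtb37 (−1.26), Zbtb10 (−0.67) and Zbtb41 (−0.51). The medians of the channel and Zbtb lists, −0.15 and −0.10, turned to 0.03 and 0.04 with the offset.

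In 8 lists with calls the count moved by at most 1.5 times when 1 of the 6 libraries was left out. It lay between 8 and 14 in the endothelial list, 8 and 13 in the clock list, 6 and 7 in the perineuronal net list, 3 and 5 in the pericyte list, 4 and 8 in the interneuron list, 2 and 4 among activity-regulated genes, 2 and 3 among metabotropic receptors and 4 and 7 in the Zbtb list. These counts do not say that the called genes were the same.

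**Figure D5:**
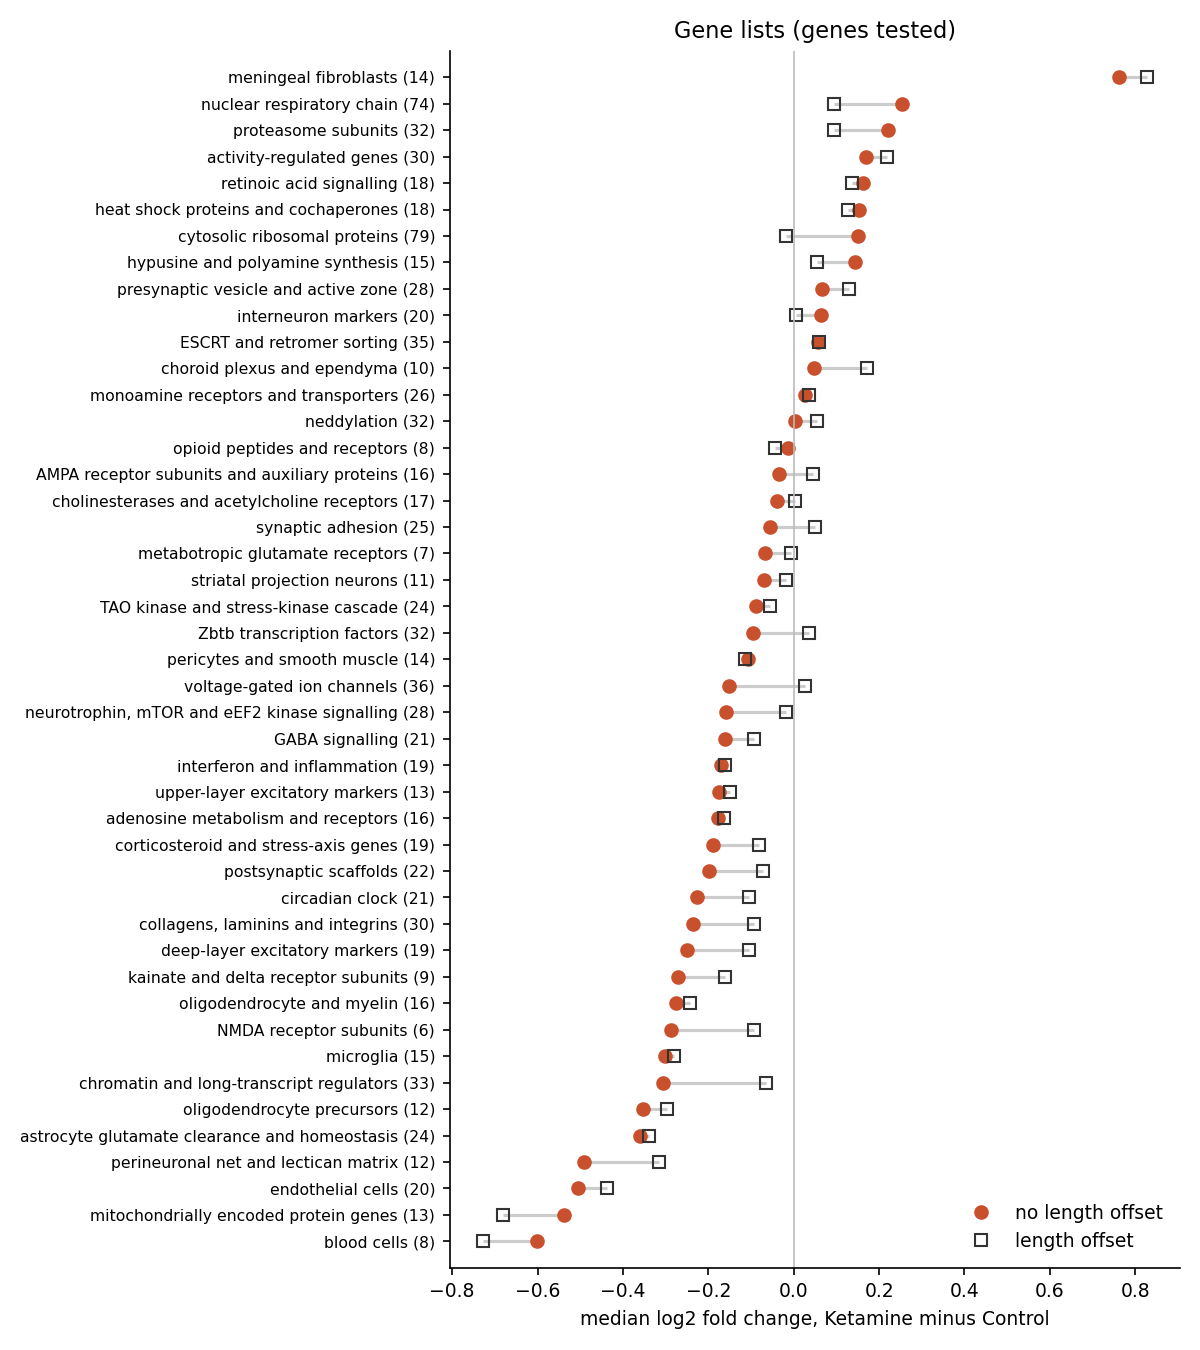
Median log2 fold change, Ketamine against Control, of the members of each gene list without and with the length offset. With the offset the respiratory chain list goes from 0.25 to 0.09. The list of chromatin and long-transcript regulators, written partly for length, goes from −0.31 to −0.07. The astrocyte list stays at −0.36 and −0.34 and the endothelial list at −0.51 and −0.44.

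The K4 libraries allow the 2 drugs to be compared directly. K4 against Control gave 1095 calls (6.07%), and it shares the 3 Control libraries with the comparison above, so likeness between the 2 is partly built in. Between Ketamine and K4 directly edgeR called 0 genes (0.0%), with 1648 at an unadjusted p below 0.05, and DESeq2 called 70. The smallest edgeR adjusted p was 0.0778, for Syt6, with a log2 difference, Ketamine minus K4, of −1.79 (95% interval −2.31 to −1.27). Differences of the leading genes are given as values: Slc1a2 −0.68 (95% interval −1.05 to −0.31), Grm3 −0.33 (95% interval −0.54 to −0.11) and Taok1 −0.41 (95% interval −0.60 to −0.23). Zbtb20 had −1.09 (95% interval −1.90 to −0.28). All 4 values were negative, at an edgeR adjusted p of 0.331, 0.379, 0.205 and 0.432, so none was called. Sorcs3 had 0.01 (95% interval −0.14 to 0.17) and Dohh −0.08 (95% interval −0.35 to 0.19), both intervals spanning 0. The width of the intervals does not show that the 2 compounds act alike on any of them. Side by side, the log2 fold changes against Control were −1.57 after ketamine and −0.89 after K4 for Slc1a2, −0.44 and −0.49 for Nr1d2, and 0.59 and 0.65 for Egr3. Medians of the marker lists were −0.51 and −0.22 for endothelial cells, and −0.28 and 0.18 for mature oligodendrocytes. The 2 drugs also differed in route, under the skin against an intravenous cannula, and the sources used here do not state their doses.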

How the data were processed

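Total RNA of the mPFC was made into libraries with a stranded, poly(A)-selecting kit, per the labels. The submitters' processing notes name HISAT2 2.1.0, StringTie 2.1.3b, bcl2fastq 2.20.0, Trimmomatic and genome build rn6. Their roles are not stated there. Raw gene counts were deposited by the authors and, per the file headers, FPKM and TPM. Counting tool and strand setting: not given in the sources used here, so genes with antisense, overlapping or near-identical partners are uncertain. TPM was not used. FPKM served for the implied length and as an alternative in limma.

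The table held 37991 genes, 12287 without a count, and 27 symbols altered to dates were restored by gene ID. Counts of all 9 libraries were fitted together in R 4.3.3 with edgeR 4.0.16 (TMM, filterByExpr with minimum count 10 and minimum total 15, robust quasi-likelihood test, 3 groups). Adjusted p-values are edgeR's, by Benjamini-Hochberg over all tested genes, unless another tool is named. Implied length is count over FPKM and library total, the median over libraries with at least 20 counts, and 557 tested genes had none. The length offset is a natural spline (5 degrees of freedom) of centred log2 CPM (prior count 2) on log2 length, fitted per library. Intervals of log2 fold changes cover 95%. The fit was tested on simulated data.

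Genes were named by a rule. In each direction it takes the 12 largest changes and the 6 smallest p-values among genes called in both fits, with mean log2 CPM 0 or above, no overlap and a proper symbol. It adds up to 4 called members per list (or the member with the smallest p) and 18 genes of prior interest. The members, the 45 lists (1024 of 1026 entries matched) and the rule were chosen with earlier results of these data known. Alternatives were RLE and upper quartile scaling, other filters, DESeq2 1.42.0, limma 3.58.1 on FPKM, a fit of 2 groups, the replicate number as a block, no mitochondrial genes, and leaving out each library. The length offset without each of the 6 libraries was added after seeing the data. Some members of the lists are counted but not reported here by name.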

Additional observations from a re-analysis of the deposited data

How the results depend on the processing

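The number of calls for Ketamine against Control lay between 2294 and 3587 under RLE and upper quartile scaling, other filters, DESeq2, FPKM, a fit of these 2 groups alone and without mitochondrial genes, within 1.5 times of 3013. The lower calls were fewer with FPKM (984 and 988 at pseudocounts 0.1 and 1), where 13666 genes were tested and higher calls prevailed (1698 and 1690). The length offset gave 1356 calls (645 higher, 711 lower). Leaving out each library gave 1177 to 3191 calls (425 to 1474 higher, 752 to 1833 lower). The length offset without each library, chosen after seeing the data, gave 545 calls without Control replicate 1 (162 higher, 383 lower), 1183 without Control replicate 2 (510, 673), 2095 without Control replicate 3 (1113, 982), 812 without Ketamine replicate 1 (311, 501), 266 without Ketamine replicate 2 (78, 188) and 456 without Ketamine replicate 3 (194, 262). The cause was not tested.

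Same-numbered Control and Ketamine libraries deviated together only weakly (correlations 0.0275 to 0.0748), and 4 of 6 libraries correlated best with their own number, so the numbers were not taken to pair the libraries. With K4 included, same-number correlations between groups ran from 0.0024 to 0.106 and other-number ones from −0.157 to 0.0688. The common coefficient of variation was 10.2% without and 9.25% with the replicate block. Whether same-numbered libraries share a batch was not tested. With the replicate number as a block 3191 genes were called (1305 higher, 1886 lower), and 1481 with the block and the length offset (671 higher, 810 lower).

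For Ketamine against K4, 6 genes were called without a filter, 70 by DESeq2, 1 with the replicate block, 2 with the block and the offset, and 1 and 1 with FPKM. Leaving out each library gave 0 to 27. With the length offset it gave 16 without Control replicate 2, 2 without Control replicate 3, 10 without Ketamine replicate 1, 1 without Ketamine replicate 2, and 0 without Control replicate 1 or Ketamine replicate 3.

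Of 184 genes taken by the naming rule, 134 kept their side of the threshold with the length offset and 49 missed it. Among those called without the offset Ptprd alone changed sign, to 0.00433, 0.0045 with the block, and 0.0218, 0.0127 and 0.0211 without Control replicate 3, Ketamine replicate 2 and Ketamine replicate 3, and Grin2b, Gria2 and Mtor, not called in either fit, went from −0.15, −0.16 and −0.12 to 0.14, 0.05 and 0.13. No scaling moved the median of all genes by over 0.1. The small medians of the opioid and striatal lists also turned under FPKM, that of the opioid list under upper quartile scaling, that of the cholinergic list under FPKM and the offset, and that of the adhesion list under the offset. The difference of length slopes lay between −0.123 and −0.0996 when each library was left out, and that of the mitochondrial share between −5.37 and −1.71 percentage points.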
